A study of Mus musculus with 4 samples.

Results

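HOXA5 is a homeodomain transcription factor of the HOXA cluster, and its occupancy was mapped in whole lungs of mouse embryos by chromatin immunoprecipitation followed by sequencing (ChIP-seq). The embryos were at E15.5 and carried a FLAG epitope on both copies of the endogenous Hoxa5 gene (genotype Hoxa5FLAG/FLAG). The described regions are the narrow HOXA5-FLAG peaks that were called in both anti-FLAG immunoprecipitates and had their summit inside a protein-coding gene. There were 690 of them, among 1630 narrow shared peaks on chromosomes 1 to 19 and X and 2175 shared peaks in all. A peak was shared when a replicate 1 peak overlapped a replicate 2 peak by at least 1 bp, and narrow when no overlapping member was longer than 1000 bp. The peak was placed at its replicate 1 summit, and a gene was counted from its annotated start to its annotated end in RefSeq (GRCm38.p6, the mm10 build of the peaks). The peak calls themselves thus chose the regions, and their fold enrichment and −log10 q are given as descriptions. The study comprised 2 immunoprecipitates and 2 inputs of the same genotype. The inputs were not analysed here, and the samples include no untagged control. Enrichment in a tagged lung could thus not be set against a lung without the tag. Sample titles carry the abbreviation wt beside the tagged genotype, and the replicate 2 list uses another replicate number in its peak names. The labels were followed in both cases. They do not say whether the replicates were separate litters or pools of lungs.

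HOX proteins pattern the body axis, and HOXA5 acts in the mesenchyme of the developing lung, trachea and diaphragm. Alone, their homeodomain reads short AT-rich cores such as TAAT. With TALE homeodomain partners of the PBX and MEIS families they bind longer composite sites, of which TGATNNAT is a common form. Many transcription factors bind enhancers that lie in introns, and an enhancer in one gene may act on a neighbour. Host gene here therefore means only the gene whose span held the summit. Exons and introns were not told apart.

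Sequence at the summit could be read where a peak fell on a promoter window of the RefSeq table, which covers 250 bases before and 50 after a listed transcription start. Only 8 of the 690 peaks had their summit in such a window, and all 8 are shown because the letters at the summit can be read directly. Each line gives 5′ to 3′ the strand of the listed start, from up to 50 bases before the replicate 1 summit to up to 50 after it. Capitals mark every match to TGATNNAT on either strand. The summit is base 51 of each line except that of Slx4ip, where it is base 19.
Uba1: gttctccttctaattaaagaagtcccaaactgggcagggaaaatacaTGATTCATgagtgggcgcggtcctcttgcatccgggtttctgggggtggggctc
Slx4ip: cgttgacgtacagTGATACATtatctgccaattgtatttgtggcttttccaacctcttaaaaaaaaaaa
Trib2: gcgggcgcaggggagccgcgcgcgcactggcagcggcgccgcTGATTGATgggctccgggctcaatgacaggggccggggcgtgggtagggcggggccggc
Katnal1: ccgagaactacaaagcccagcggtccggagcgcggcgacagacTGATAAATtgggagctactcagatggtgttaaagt
Gm51500 (in Adam12): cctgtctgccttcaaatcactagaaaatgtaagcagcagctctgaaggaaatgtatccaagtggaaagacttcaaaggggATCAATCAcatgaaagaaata
A030001D20Rik (in Rasip1): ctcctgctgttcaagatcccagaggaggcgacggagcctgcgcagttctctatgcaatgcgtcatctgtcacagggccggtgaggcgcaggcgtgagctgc
Gm15050 (in Hoxa3): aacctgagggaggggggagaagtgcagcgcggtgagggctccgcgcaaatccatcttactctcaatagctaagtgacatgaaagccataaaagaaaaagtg
Bcas3os2 (in Bcas3): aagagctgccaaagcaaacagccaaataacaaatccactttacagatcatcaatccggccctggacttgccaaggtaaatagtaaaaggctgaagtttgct

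These stretches lie at chrX:20662795-20662895 (plus strand), chr2:136891918-136891986 (plus), chr12:15816911-15817011 (minus), chr5:148928598-148928675 (minus), chr7:133933716-133933816 (plus), chr7:45638736-45638836 (minus), chr6:52172767-52172867 (plus) and chr11:85775698-85775798 (minus). At Uba1, which encodes the enzyme that starts ubiquitin conjugation, the match TGATTCAT covered the summit base, 51 bp before the listed start. Enrichment there was 21.2-fold in replicate 1 and 10.5-fold in replicate 2. At Slx4ip, named for an interaction with the structure-specific nuclease scaffold SLX4, TGATACAT covered the summit 232 bp before the start (11.2- and 7.85-fold). At Katnal1, which encodes a katanin-like microtubule-severing protein, TGATAAAT covered the summit 22 bp past the start (2.89- and 4.07-fold). At Trib2, a Tribbles pseudokinase gene, TGATTGAT ended 1 bp from the summit, which lay 176 bp before the start (8.51- and 4.30-fold). The Adam12 peak (4.29- and 3.38-fold) had its match 30 bp from the replicate 1 summit, and its replicate 2 summit lay outside the window, 497 bp before the listed start of Gm51500. The windows in Rasip1, Hoxa3 and Bcas3 held no match.

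A TGATNNAT match lay within 10 bp of the summit in 4 of the 8 peaks (50%, 95% Wilson interval 21.5 to 78.5). Of all bases in the 32817 promoter windows, 0.883% lay within 10 bp of a match, and 8.86% of the windows held one anywhere, against 5 of these 8. The motif was taken from HOX biology, and the 10 bp limit was set after the sequences were seen. With 20 bp the count stayed at 4 of 8, against 1.47% of window bases. That is no separate check, since the next nearest match, in Adam12, lay 30 bp from its summit. The narrower form TGATTNAT, a subset of TGATNNAT, was within 10 bp in 2 of 8 (0.307% of bases; 3.22% of windows hold it). The core TAAT was within 10 bp in 1 of 8 (9.20% of bases, 58% of windows). The MEIS-type motif TGACAG was so in 0 of 8, where 3 counts would be 37.5%, against 1.84% of bases (19.2% of windows), and within 20 bp in 2 of 8 (3.17% of bases). Of the narrow shared peaks outside coding genes, 10 had their summit in a window and 6 of those had TGATNNAT within 10 bp. Of the replicate 1 peaks of at most 1000 bp inside coding genes that had no replicate 2 partner, 19 had a summit in a window and 2 had the match (10.5%, 2.94 to 31.4). These differences were not tested, peaks are not replicates, and the 8 summits are not a sample of the other 682, whose sequence was not read here.

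Enrichment in the 690 peaks covered a wide range. Fold enrichment at the summit is the authors' value for each peak in its own list. It had a median of 5.24 in replicate 1 (quartiles 3.65 and 7.97, range 1.49 to 54.4) and 3.91 in replicate 2 (3.11 and 5.13, range 1.36 to 25.6). A fold of at least 10 in replicate 1 was reached by 115 peaks (16.7%, 14.1 to 19.6). Peaks were a median of 466 bp long in replicate 1 and 384 bp in replicate 2. The median distance between the summits of the 2 replicates was 20 bp, and it was at most 100 bp in 576 peaks (83.5%, 80.5 to 86.1). The rule kept only overlapping calls of at most 1000 bp, so close summits are partly built in. Across the 690 peaks the folds of the 2 replicates were ordered alike (Spearman correlation 0.836), where both values of a point belong to the same region and its base composition. The plot of fold in both replicates shows 1 continuous cloud with no separate group of strong peaks.

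**Figure D1:**
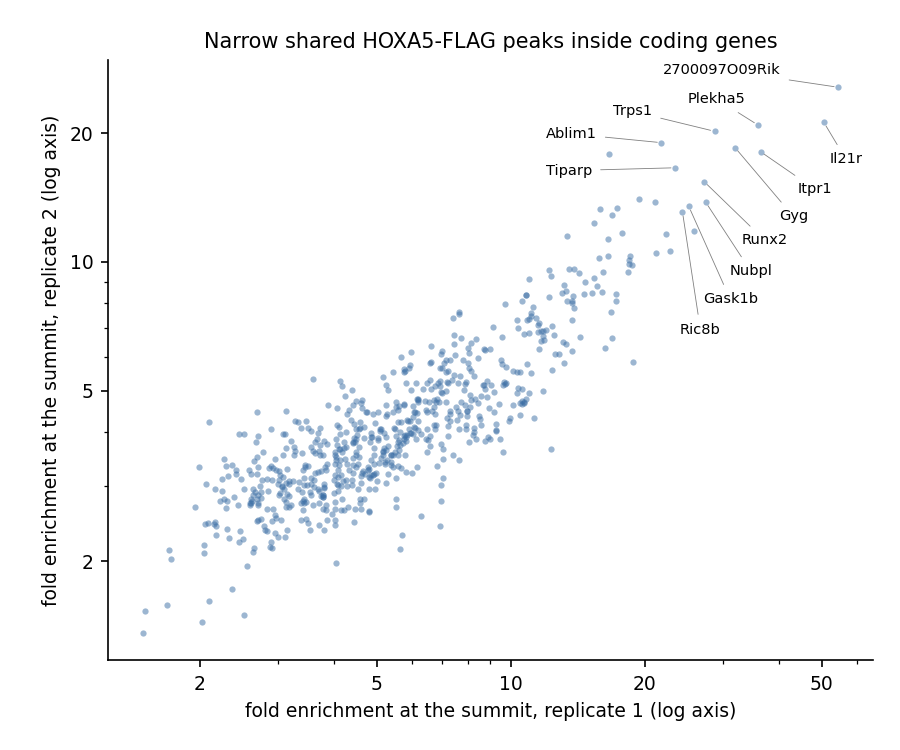
Fold enrichment at the summit in replicate 1 (x axis) and replicate 2 (y axis), both log axes, for each of the 690 narrow shared peaks inside protein-coding genes. Points are peaks, and the 12 with the best mean within-list rank are named by host gene. They reach 54.4-fold in replicate 1 and 25.6-fold in replicate 2.

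The 12 strongest hosts, by mean rank of fold in both lists, did not belong to one family. The highest peak lay in 2700097O09Rik, 19.1 kb from its 5′ end (54.4- and 25.6-fold). Next was Il21r, the interleukin 21 receptor gene, with a summit 94% of the way to its 3′ end (50.5- and 21.2-fold). Plekha5 had 35.9- and 20.9-fold at 30.8% of its span. Itpr1, the endoplasmic reticulum calcium release channel gene, had 36.4- and 18.1-fold. Trps1 encodes a GATA-type zinc finger repressor and Runx2 a Runt domain factor of skeletal development. Trps1 held a peak of 28.7- and 20.2-fold (chr15:50665738-50666457) and a weaker one of 6.96- and 2.76-fold. Runx2 held 27.2- and 15.4-fold at 80.6% of its span, 4.05 kb from a listed start, and 6.42- and 4.72-fold at 32.8%. Gyg, the glycogenin gene that primes glycogen synthesis, had 31.9- and 18.5-fold. Nubpl, an assembly factor gene of respiratory complex I, had 27.4- and 13.8-fold. Ablim1, an actin-binding LIM protein gene, had 21.8- and 19-fold, and Tiparp, a poly(ADP-ribose) polymerase gene, had 23.4- and 16.6-fold.

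The remaining pair of the 12 lay within 300 bp of a listed start. In Gask1b, a Golgi-associated kinase gene, the summit was 231 bp past a listed start (25.1- and 13.5-fold). In Ric8b, an exchange factor gene for G protein alpha subunits, it was 266 bp before one and 79 bp inside the annotated gene (24.3- and 13.1-fold). In both genes the summits of the 2 replicates differed by at most 2 bp relative to the start. Polg, the mitochondrial DNA polymerase gene, had its summit 369 bp before a listed start (17.2- and 8.42-fold), and Triobp, an actin-bundling protein gene, had it 197 bp past one (14.7- and 9-fold).

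The 690 peaks lay in 574 host genes, so 2.67% of 21519 protein-coding genes held at least 1. They were long genes. The median span of a host was 176 kb, against 17.4 kb for all protein-coding genes. Of 226 genes that span at least 500 kb, 94 (41.6%) were hosts, and of 2198 genes of 100 to 500 kb, 294 (13.4%). Of 11420 genes of 10 to 100 kb, 175 (1.53%) were hosts, and of 7675 genes under 10 kb, 11 (0.143%). Longer genes offer more bases, so the number of peaks was also set against span. Genes of 100 to 500 kb held 0.857 peaks per Mb and those of at least 500 kb 0.671. Genes of 10 to 100 kb held 0.465 and those under 10 kb 0.342. Genes of 100 to 500 kb made up 40.9% of coding bases and held 53.2% of the peaks, and genes of 10 to 100 kb made up 37.6% and held 26.5%. Peak density per base thus also differed between span classes, without a test.

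**Figure D2:**
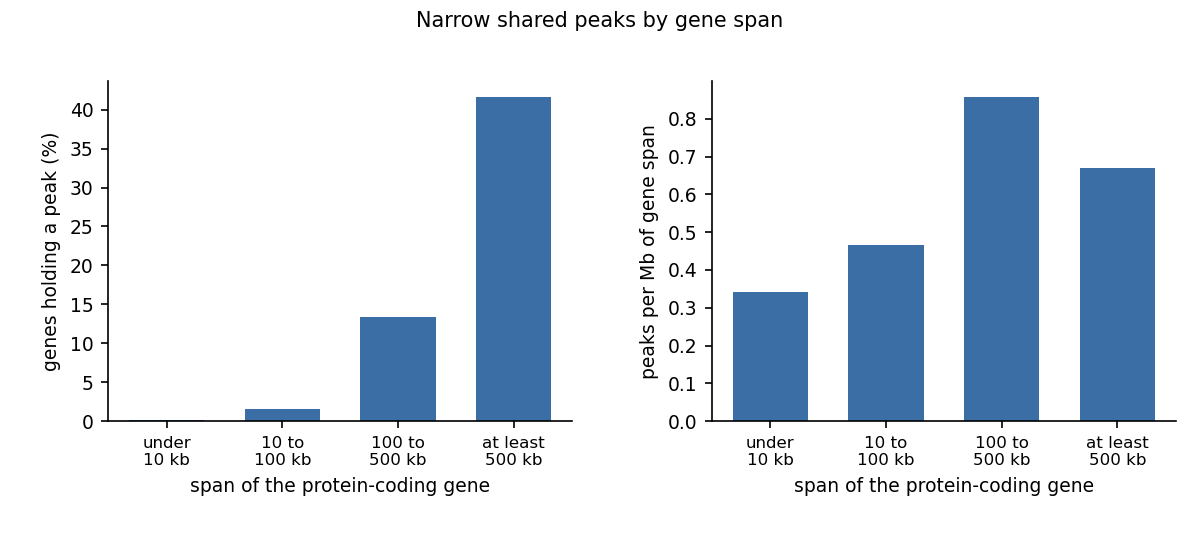
Left, percent of protein-coding genes that hold at least 1 narrow shared peak, by annotated span of the gene (x axis). Right, peaks per Mb of gene span in the same classes. The share of host genes goes up with every class, to 41.6% at 500 kb or more, while the density is highest at 100 to 500 kb, with 0.857 peaks per Mb.

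Over 10 equal bins of their host genes the summits were spread along the whole span. Close to gene ends and listed starts, some shares of peaks differed from those of bases, as given below. A strand was listed for the hosts of 525 peaks. Their median position was 0.499 of the span from the 5′ end (quartiles 0.262 and 0.719), and 264 of 525 (50.3%, 46 to 54.5) lay nearer to the 5′ end than to the 3′ end. With the span cut into 10 equal bins, a bin held 39 to 58 peaks. Within 1000 bp of the annotated 5′ end lay 13 of the 525 (2.48%, 1.45 to 4.19) and within 1000 bp of the 3′ end 8 (1.52%, 0.774 to 2.98). Over all 690 peaks, 27 (3.91%, 2.7 to 5.63) were within 1000 bp of either end, the same as the 3.91% of coding bases that lie so near. Within 5000 bp there were 68 (9.86%, 7.85 to 12.3), against 16.3% of bases. The values by span class are as follows. In genes of 100 to 500 kb, 4.63% of the peaks and 5.13% of the bases were within 5000 bp of an end. In genes of 10 to 100 kb the shares were 21.9% and 29%. None of the 129 peaks in genes of at least 500 kb was that near, where 3 counts would be 2.33%, and 1.17% of the bases were. Starts inside genes count too. The median distance to any listed transcription start was 42.8 kb. Only 438 of the 574 hosts have a listed start, so a nearer start can be missing and the distance can be too long. The summit in Ncoa2, for example, lay 7.53 kb from a gene end but 480 kb from a listed start. Of the 666 peaks on chromosomes with listed starts, 36 (5.41%, 3.93 to 7.39) were within 1000 bp of one, as were 2.97% of the coding bases on those chromosomes.

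**Figure D3:**
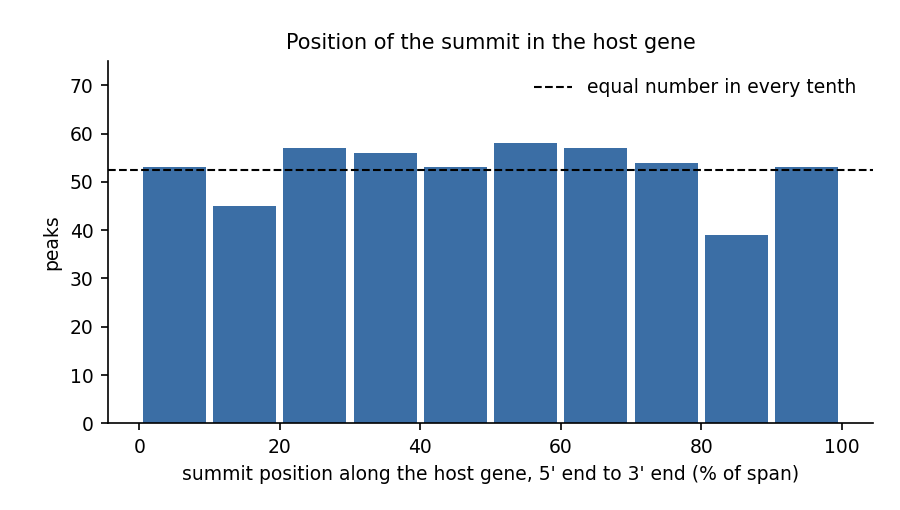
Number of narrow shared peaks (y axis) in 10 equal bins of the host gene, from the 5′ end to the 3′ end (x axis, percent of span), for the 525 peaks whose host has a listed strand. The dashed line marks an equal number in every bin. Counts run from 39 to 58.

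Some of the 27 peaks within 1000 bp of a gene end are named here. Most were picked by rank of fold, so their strength does not describe near-end peaks in general. Cacng2, a calcium channel gamma subunit gene also known for trafficking glutamate receptors, had its summit 309 bp inside the 5′ end (16.5- and 10.3-fold). The glycine receptor gene Glra1 had one 267 bp from an end (14.2- and 9.40-fold). Xkr7 had one 560 bp from its 5′ end (12.4- and 7.07-fold) and Iqsec3, an ARF exchange factor gene, 476 bp from its own (11.8- and 6.88-fold). Rasip1, a gene for a Ras-interacting protein of blood vessel formation, had one 306 bp from its 3′ end (11- and 7.37-fold), at the listed start of the noncoding gene A030001D20Rik. Msh5, a meiotic MutS homologue gene, had one 54 bp from its 5′ end (10.3- and 4.94-fold). Col5a2, a fibrillar collagen gene, had one 81 bp from an end (9.98- and 4.31-fold).

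Some summits lay in more than 1 gene. Those of 45 peaks (6.52%, 4.91 to 8.62) also lay in a long noncoding RNA gene, as did 4.3% of coding bases, and those of 5 lay in 2 protein-coding genes at once. Of those 5, 3 were in the overlapping genes Cmss1 and Filip1l, the highest at 16.3- and 6.28-fold. The peak in Cdh23, a cadherin gene, lay at the same time in Vsir, an immune checkpoint receptor gene (9.49- and 5.91-fold).

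Most hosts held 1 peak. Of the 574, 491 held 1, 58 held 2, 18 held 3 and 7 held at least 4, so that 29.1% of the peaks (25.9 to 32.6) shared their host with another. Genes with at least 2 made up 0.386% of all protein-coding genes. Neighbouring peaks of the same host were a median of 58.9 kb apart (119 gaps, 0.906 to 1027.0 kb). Lrmda, known from melanocyte differentiation, held 8 over 800 kb, with 5.04- to 13.4-fold enrichment in replicate 1 and 4.46- to 8.85-fold in replicate 2. Galntl6, a gene of the GalNAc-transferase family, held 5 over 546 kb, from 2.29- to 13.7-fold in replicate 1. Wwox, a WW domain oxidoreductase gene, held 5 over 634 kb, and its highest had 18.5- and 10.3-fold. Smg6, which encodes an endonuclease of nonsense-mediated decay, held 4 within 75 kb, none above 6.65-fold in replicate 1. Limch1, whose product activates nonmuscle myosin, held 4 (3.42- to 6.46-fold in replicate 1). Nfib, a nuclear factor I gene needed for lung maturation, held 4, of which a pair lay 1.99 kb apart. Their folds were 4.23, 5.38, 4.08 and 4.75 in replicate 1, and 3.67, 3.4, 4.55 and 4.45 in replicate 2, in order of position.

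Bcas3 held 4 peaks between chr11:85492166 and chr11:85775996. In order of position they had 8.82-, 10.5-, 4.10- and 7.06-fold in replicate 1 and 4.84-, 5.54-, 3.26- and 5.80-fold in replicate 2. The coding genes next to Bcas3 are Ppm1d, a phosphatase gene 6.04 kb from its low-coordinate end, and Tbx2, 6.56 kb from its other end. Tbx2 is a T-box factor gene of the lung mesenchyme. The peaks themselves were farther away. They lay at least 139 kb inside the end of Bcas3 next to Ppm1d and at least 50.3 kb inside the end next to Tbx2. Tbx4, another T-box gene, was itself a host, with 7.29- and 4.25-fold at 24.9% of its span. Which gene, if any, a peak acts on was not measured.

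**Figure D4:**
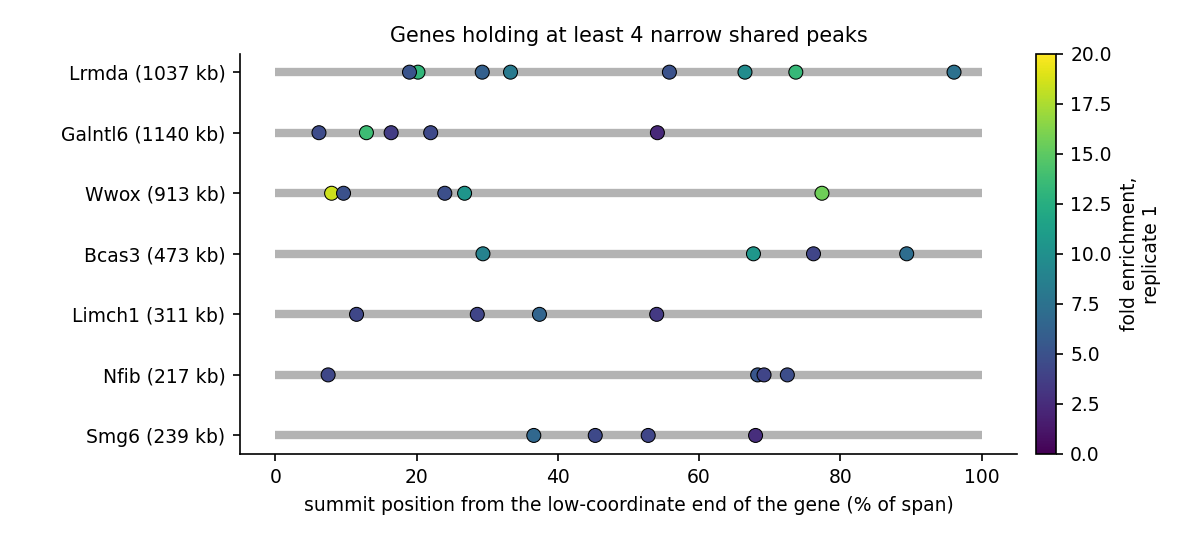
Positions of summits in the 7 genes that hold at least 4 narrow shared peaks, as percent of the gene span from its low-coordinate end (x axis), with genes down the page and their span in kb. Grey bars are genes, circles are peaks, and colour gives fold enrichment in replicate 1. Lrmda has 8 peaks, the highest at 13.4-fold, and the highest circle in all, in Wwox, is at 18.5-fold.

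Host genes were then grouped by 46 gene lists, which together name 4216 protein-coding genes, of which 171 were hosts. Since 2.67% of all protein-coding genes held a peak and long genes held more, the share of the peaks is given for each list described, beside the list's share of protein-coding bases. No list was tested, and the lists were chosen with earlier results of these data known. Of the 46 lists, 25 held a larger share of the peaks than of the bases and 21 a smaller one. At least 1 host was found in 40 of the 46, and in 36 the share of genes that were hosts was above 2.67%. The lists are not complete, and hosts outside a list may belong to the same family or pathway. Genes can stand in more than 1 list.

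The list of lung mesenchyme transcription factors had 5 hosts among 27 genes, holding 10 peaks (1.45% of peaks, 0.241% of bases). Of these 10, Nfib held 4 and Tbx5 held 3, and the nuclear factor I hosts given below are among the 5. Tbx5, a T-box gene of the budding lung and heart, held 3 with 12.8- and 6.09-fold, 4.03- and 3.38-fold, and 3.71- and 3.62-fold. The first and last of these also lay in the noncoding gene Gm5563. Nfia, the paralogue of Nfib, held 1 (4.00- and 3.10-fold), and 2 of the 4 nuclear factor I genes were hosts (0.725% of peaks, 0.0866% of bases). Gli2, the hedgehog effector gene, held a weak one (2.64- and 2.85-fold). In the Hox and TALE list 5 of 50 genes were hosts, with 7 peaks (1.01% of peaks, 0.148% of bases). Hoxa3 held 2 (7.92- and 4.17-fold, 5.80- and 3.53-fold) at 91.5% and 85.2% of its annotated span. Hoxb2 held 1 (8.04- and 3.80-fold) and Pbx3, which encodes a TALE partner of HOX proteins, held 2 (5.86- and 4.27-fold, 5.39- and 3.53-fold). Foxp1 (10.8- and 4.78-fold) was the single host among 44 forkhead genes (2.27%, near the 2.67% of all coding genes), with 0.145% of peaks and 0.218% of bases. It was also the single host among 36 lung epithelium genes (2.78%, with 0.145% of peaks and 0.183% of bases). Sox5 (2.58- and 3.26-fold) and Sox6 (3.41- and 2.63-fold), SOX factors of cartilage, were the 2 hosts among 19 SOX genes (0.29% of peaks, 0.163% of bases). Among nuclear receptors, 3 of 45 were hosts, including Pparg (8.74- and 6.24-fold) and the retinoic acid receptor gene Rarb (5.60- and 3.84-fold).

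Signalling lists lay on both sides of their share of bases. In the hedgehog list 3 of 17 genes were hosts (17.6%, with 0.435% of peaks and 0.113% of bases), which were the coreceptor gene Boc (4.51- and 3.94-fold), the receptor gene Ptch1 (4.60- and 2.65-fold) and Gli2. In the Wnt list 3 of 59 were, with 6 peaks (0.87% of peaks, 0.313% of bases). They encode receptors with a kinase or kinase-like domain. Ror2 held 7.64- and 7.55-fold and 4.18- and 2.79-fold, Ror1 held 3, the highest 6.31 kb from its 5′ end (7.02- and 5.65-fold), and Ryk held 1 (4.98- and 3.22-fold). Among 59 BMP and TGF-beta genes 2 were hosts, Ltbp2 (9.74- and 5.22-fold), which encodes a latent TGF-beta binding protein relative of the matrix, and the receptor gene Bmpr1b (8.68- and 5.17-fold), with 0.29% of peaks and 0.329% of bases. The list leaves out Bmper, a BMP regulator gene that was also a host (12.4- and 5.6-fold). With so few peaks, the side on which this list lies rests on which genes it names. Maml3, a Notch coactivator gene, was the single host among 23 Notch genes (4.42- and 3.77-fold), which hold 0.145% of peaks and 0.148% of bases. None of 35 FGF signal genes was a host, and that list holds 0.27% of coding bases. It had 1 host with no length limit, 4 in the replicate 1 list alone and 3 in the replicate 2 list alone.

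Both lists of cytoskeletal and contractile genes described here held a larger share of the peaks than of the bases, as did 25 of all 46 lists. Of 91 actin and LIM genes, 13 were hosts, with 20 peaks (2.90% of peaks, 1.03% of bases). Beside Ablim1 and Limch1 they included Myo18b (8.34- and 6.59-fold), Ablim3 (10.6- and 5.04-fold) and Lpp, a focal adhesion LIM gene with 3 (7.68- and 5.41-fold, 9.27- and 4.02-fold, 2.07- and 3.02-fold). Of 16 smooth muscle genes 3 were hosts with 5 peaks (0.725% of peaks, 0.12% of bases). Cald1, the caldesmon gene, held 14.6- and 8.42-fold and 3.17- and 2.68-fold. Mylk, the myosin light chain kinase gene, held 4.44- and 4.19-fold and 4.50- and 3.32-fold, and the integrin gene Itga8 held 3.78- and 2.85-fold.

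The 3 lists of matrix genes held a larger share of the peaks than of the bases, as did 25 of all 46 lists. For basement membrane and matrix genes the shares were close. Of 44 collagen genes 6 were hosts with 9 peaks (1.30% of peaks, 0.53% of bases). Col5a2 held 9.98- and 4.31-fold and 5.52- and 2.68-fold, the membrane collagen gene Col23a1 8.27- and 4.09-fold and 4.67- and 3.87-fold, and the cartilage collagen gene Col2a1 4.59- and 4.10-fold. Of 63 basement membrane and matrix genes 4 were hosts, which were Lamb1 (laminin beta 1, 9.15- and 4.47-fold), Nid1 (nidogen, 5.98- and 5.03-fold), Tnc (tenascin C, 6.05- and 4.11-fold) and Matn2. They held 0.725% of peaks, and the list holds 0.586% of bases. Of 85 ADAM and matrix protease genes 7 were hosts, led by Adamtsl1 (11.9- and 6.58-fold) and Adam12 (10.3- and 5.53-fold), with 1.45% of peaks and 0.596% of bases. Of 27 integrin genes 4 were, among them Itga1 (8.47- and 4.36-fold), with 0.58% of peaks and 0.217% of bases.

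Guidance and adhesion genes differed from list to list. Of 75 axon guidance genes 10 were hosts with 14 peaks (2.03% of peaks, 1.35% of bases). The netrin receptor gene Unc5a had 10.8- and 8.38-fold, Rgma, a repulsive guidance molecule gene, 10.7- and 4.69-fold, and the ligand gene Slit3 7.14- and 5.52-fold. Robo2, which encodes a SLIT receptor, held 3, all at or below 3.14-fold in replicate 1 and 3.97-fold in replicate 2. Of 79 synaptic adhesion genes 11 (13.9%) were hosts, but their share of the peaks (1.88%) was below their share of bases (3.39%). The share of peaks was also the smaller one for cadherins and protocadherins (0.725% of peaks, 1.21% of bases), for glutamate and GABA receptors (0.87% and 1.21%), for potassium channels (0.435% and 1.04%) and for solute carriers (1.16% and 1.96%). It was smaller by little for nuclear receptors (0.435% and 0.512%), growth factor receptor kinases (0.435% and 0.448%) and calcium channels and stores (1.01% and 1.02%). The cadherin and protocadherin list had 3 hosts, but 7 in the replicate 1 list alone and 17 in the replicate 2 list alone. A summit in overlapping genes counts for each of them. How bases shared by overlapping genes weigh in the 1.21% was not examined. Of 113 chromatin regulator genes 12 were hosts (1.88% of peaks, 1.01% of bases), among them Tet1 (9.70- and 5.18-fold), which encodes a methylcytosine dioxygenase.

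**Figure D5:**
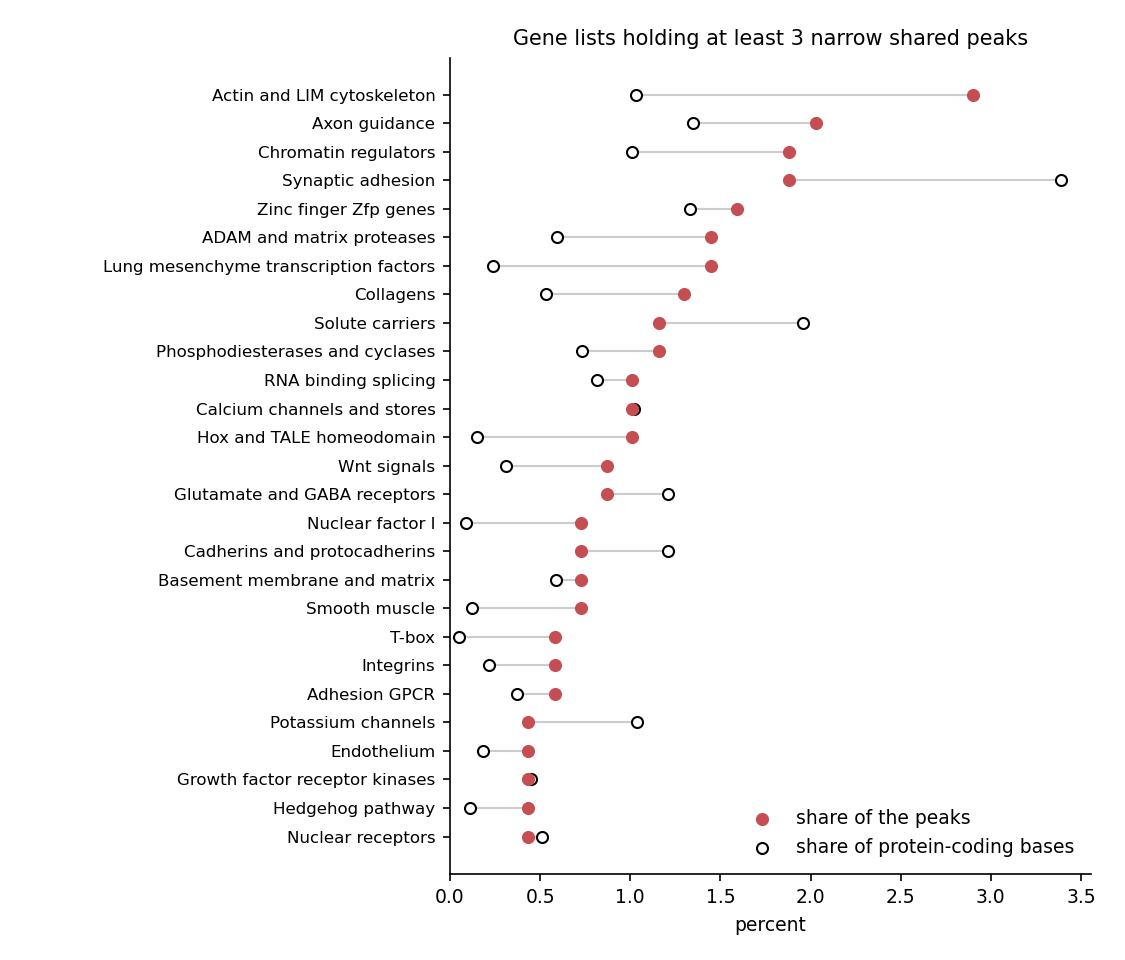
Share of the 690 narrow shared peaks (red) and share of all protein-coding bases (open circles) for 27 of the 28 gene lists with at least 3 of the peaks, in percent on the x axis, with lists down the page. The share of peaks is 2.90% against 1.03% of bases for actin and LIM genes, and 1.88% against 3.39% for synaptic adhesion. Lists with fewer peaks are not drawn, so the number of lists on either side cannot be read from it.

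The endothelial, blood and nerve marker lists had 1 host each. Mecom was the single host among 22 endothelial genes, with 3 peaks (7.16- and 4.71-fold, 4.12- and 3.35-fold, 3.43- and 2.74-fold), or 0.435% of peaks against 0.185% of bases. Il21r was the single one among 22 blood and immune genes, with 0.145% of peaks and 0.107% of bases, and Rbfox3 (11.7- and 6.53-fold) among 24 nerve genes, with 0.145% and 0.2%. These are 4.55%, 4.55% and 4.17% of the 3 lists, each from 1 gene, against 2.67% of all coding genes. The 3 lists are short and leave out some hosts of such kinds, among them Rasip1 and Glra1, which are described above. No host was found among 48 cell cycle genes, 84 ribosomal protein genes, 105 keratin genes or 1459 olfactory and vomeronasal receptor genes. Those lists hold 0.128%, 0.03%, 0.0463% and 0.552% of coding bases. Cell types of the lung were not separated, so the peaks cannot be placed in one of them.

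Chromosome X carried few of the peaks. It held 7, or 0.154 per Mb of coding gene span, against 0.519 to 0.875 on the 19 autosomes. They lay in Uba1, Dach2 (16.8- and 7.65-fold), Nhs, F8 with a pair, Dmd and Smarca1, and their median fold was 3.03 in replicate 1 and 3.3 in replicate 2. Outside coding genes the narrow shared peaks were fewer on X too, with 0.196 per Mb against 0.453 to 0.795. All replicate 1 peaks had 0.817 per Mb on X against 1.39 to 1.94 on autosomes, and all replicate 2 peaks 0.74 against 0.859 to 1.32. The labels give no sex of the embryos, and the part of X copy number in these values was not tested.

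The peaks inside coding genes were of much the same strength as the other narrow shared peaks. Their median fold was 5.24 in replicate 1, against 4.94 for 523 peaks outside but within 100 kb of a coding gene end and 4.58 for 417 farther away. In replicate 2 it was 3.91, against 3.74 and 3.70. The median −log10 q in replicate 1 was 24.8, against 22.3 and 18.3. Quartiles overlapped widely (3.65 to 7.97, against 3.46 to 7.43 and 3.32 to 6.9 for fold in replicate 1), and no test was made. Of the narrow shared peaks 42.3% (40 to 44.7) were inside a coding gene. So were 40% of the bases between the first and the last annotated gene of each chromosome, which include the bases between genes.

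At the limits of the definition, the longest accepted peaks were in Otogl (1000 bp, 3.14- and 2.87-fold), Smarca1 (997 bp, 2.96- and 2.32-fold) and Prkcb (990 bp, 3.25- and 3.69-fold). The shortest rejected ones were in Arhgap24 (1001 bp, 4- and 3.95-fold), Morc1 (1014 bp, 3.95- and 2.5-fold) and Hace1 (1015 bp, 3.1- and 3.31-fold). The summits nearest to a gene end on the inside were those of Trib2 (1 bp), Msh5 (54 bp) and Ric8b (79 bp). On the outside they were at Dtd1 (9 bp, 3.15- and 3.26-fold), Rtn4 (64 bp, 7.89- and 3.47-fold) and Exoc1 (96 bp, 5.37- and 4.41-fold).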

How the data were processed

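Peak lists of the 2 immunoprecipitates were used, 1 per replicate. Per the labels' protocols, tissue was fixed in 1% formaldehyde for 10 min and chromatin was sheared to 200 to 500 bp. MACS3 3.0.1 and build mm10 are named, per the submitters' processing notes, as are Bowtie2 2.5.2, SAMtools 1.18 and, without further detail, deepTools, bedtools, FastQC 0.12.1 and Trim Galore. For settings, the control used in peak calling and region filters, nothing is stated in the labels or notes used. The authors deposited a fold enrichment (a ratio), a −log10 p and a −log10 q at each summit, all set within a list, and a score that was not used. The lists hold no read counts, so depth is unknown, and intervals cover counting error only.

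Peaks were merged, placed and counted with Python 3.11.15, pandas 2.3.3 and scipy 1.17.1, after a check on simulated data. Genes with a start below 3000000 bp were left out as scaffold positions, which left 21519 coding genes. A summit in 2 coding genes counts for both as hosts, and its position was measured in the longer. Strands and promoter sequence are from the RefSeq promoter table, which lists a strand for 438 of the 574 hosts and has no window on chromosome 18 here. Shares carry 95% Wilson intervals. No test was run, since peaks are not replicates and the calls chose them. Genes named are hosts of the 12 peaks of best mean rank, hosts of at least 4 peaks, up to 3 per list, up to 10 near gene ends and those at the limits. Others (such as Polg, Hoxa3's second peak, Matn2, Robo2, Lpp, Cmss1 with Filip1l, and the hosts on X) were chosen after their values were seen. The regions and lists were chosen with earlier results of these data known. Some genes and lists that the rule selects are not reported here. Alternatives were other overlaps, lengths, thresholds, summits, gene sets and single replicates.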

Additional observations from a re-analysis of the deposited data

Results flagged for a closer look

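A pair of sets of shared peaks lay outside the definition and were used in no comparison with gene lists. On chromosome Y or on scaffolds there were 13 narrow shared peaks, with a median fold of 2.54 in replicate 1 (1.52 to 6.21) and 2.59 in replicate 2 (1.85 to 4.94). Inside protein-coding genes there were 163 shared peaks with a member over 1000 bp, with a median fold of 3.38 in replicate 1 (1.53 to 10.5) and 3.45 in replicate 2 (1.28 to 10.8). With no analysed control, both were picked out only because their number is above the 3 counts taken as a floor.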

How the results depend on the processing

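With 2 immunoprecipitates and no analysed input or untagged lung, background regions common to both lists cannot be told from binding, and depth is unknown. The median position from the 5′ end was 0.469 to 0.521 of the span over the alternatives run. The count of summits near TGATNNAT was 3 of 5 with a length limit of 500 bp, 6 of 27 in the replicate 1 list alone, and otherwise 4 of 7 or 8. With a length limit of 500 bp the peaks numbered 359, the host genes 326 and the hosts in lists 107, and 17.3% of peaks shared a host. With no length limit the median fold in replicate 1 was 4.60, and 39.8% of shared peaks were inside a coding gene. With summits at most 100 bp apart the median fold was 5.86 and 25.5% of peaks shared a host, and with a −log10 q of at least 5 in both lists the median fold was 5.83. Within 1000 bp of a gene end lay 3.91% of peaks. The replicate 1 list alone gave 1637 peaks, 1158 host genes and 294 hosts in lists, and the replicate 2 list alone 969, 795 and 228. Then 34% to 47.7% of peaks shared a host and 10.4% to 12.3% were within 5000 bp of an end, and the median fold of replicate 1 peaks alone was 4.10. Of the counts of single lists under alternatives, 73 moved by more than 1.5 times and 341 did not. No paired analysis was possible because no test was made and the inputs that share the replicate numbers were not analysed here.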
